A study of Mus musculus with 8 samples.

Results

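Heat shock proteins and DnaJ co-chaperones fold, refold and hand over other proteins, and the values below describe 48 of their genes in cells of the mouse dorsal root ganglion. The genes were chosen by symbol alone, as every gene of the deposited table of cluster markers that starts with Hspa, Hspb, Hspd, Hspe, Hsph, Hsp90 or Dnaj. They are 48 of 9229 genes in the table. By the same rule the RefSeq annotation of GRCm38.p6 holds 74 protein-coding genes, and the other 26, among them Hspa13, Hspa14 and Hspb6, are not listed in the table and are not analysed here.

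The study dissociated dorsal root ganglia of C57BL/6 mice (age 21 to 30 days, 4 mice pooled) with enzymes at 37 °C for 20 and then 15 minutes. Living cells were then labelled for the proteasome subunit β5 at room temperature, for 30 minutes with a primary and 40 minutes with a secondary antibody, and sorted into NMP-positive cells, labelled for the neuronal membrane proteasome at their surface, and NMP-negative cells. The protocol for extraction that the labels cite is one for nuclei, so whether whole cells or nuclei were loaded is not clear from them. Each population has 4 labelled samples, which are 4 sequencing lanes of 1 library, so neither has a biological replicate. The table gives each of 20 clusters against all other cells, with both populations mixed, so no value below belongs to NMP-positive or to NMP-negative cells.

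The Hsp70 proteins bind short hydrophobic stretches of unfolded protein in a cycle driven by ATP, DnaJ proteins start that cycle by bringing clients and stimulating ATP hydrolysis, and nucleotide exchange factors such as the Hsp110 proteins end it. Hsp90 finishes the folding of kinases and receptors, and small heat shock proteins hold unfolded protein without ATP. Each compartment has its own set, in the cytosol, the endoplasmic reticulum and the mitochondria. Heat and unfolded protein in the cytosol activate the factor Hsf1, which binds heat shock elements, while unfolded protein in the endoplasmic reticulum activates factors that bind ER stress elements.

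The authors named 10 clusters as neurons (40.8% of all cells), 3 clusters as Low.UMI, meaning few transcript molecules per cell (28.6%), and 7 clusters as Unknown (30.7%). The names of the 3 Low.UMI clusters also carry a neuron type. There, 10 of 18 pairs of general neuron marker and cluster were higher (55.6%, against 10.9% of all genes) and 1 was lower (5.56%, against 20.6%). All 6 general neuron markers of the marker list were lower in each of the 7 Unknown clusters. By the marker lists, 5 of 5 endothelial markers were higher in Unknown.1, 5 of 5 satellite glia markers in Unknown.2, 5 of 5 mural cell markers in Unknown.3, 5 of 5 Schwann cell markers in Unknown.4, 5 of 5 fibroblast markers in Unknown.5 and in Unknown.6, and 6 of 6 macrophage markers in Unknown.488p. These clusters are called endothelial-like, satellite-glia-like, mural-like, Schwann-like, fibroblast-like and macrophage-like here. The macrophage-like cluster is led by S100a9 and S100a8, which are known from neutrophils, followed by macrophage genes.

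A gene is called higher or lower in a cluster where its deposited adjusted p is under 0.05, by the sign of the log2 fold change of the cluster over all other cells. Single cells are the units of these p-values, and the same expression values had formed the clusters, so the calls serve as a filter and not as a test. A pair of gene and cluster that is missing from the table was close to the other cells, rarely detected or above a p of 0.01. It is not read as absence. No number of cells is given, so the values carry no error and no interval.

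Of 960 possible pairs of chaperone gene and cluster, 319 are listed, 101 were called higher and 170 lower. The shares of 10.5% higher and 17.7% lower lie near those of all genes of the table, of which 10.6% of pairs were called higher and 15.9% lower. Both shares are close to this background, and the counts differed between kinds of chaperone and between kinds of cell. Without the Low.UMI clusters the pairs called higher number 67, and without the Unknown clusters the pairs called lower number 53. No share of all genes stands beside these counts, so they do not set chaperones apart from other genes.

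In the 7 Unknown clusters 117 of 336 pairs were lower (34.8%, against 27.1% over all genes) and 30 were higher (8.93%, against 10.2%). In the 3 Low.UMI clusters it was the other way round, with 34 of 144 pairs higher (23.6%, against 10.9% over all genes) and 19 lower (13.2%, against 20.6%). The 10 named neuron clusters had 37 of 480 pairs higher (7.71%, against 10.9% over all genes) and 34 lower (7.08%, against 6.72%). Over the listed chaperone pairs, the log2 fold change had a median of -0.42 in the Unknown clusters, against -0.36 over all listed genes, 0.33 in the Low.UMI clusters, against -0.30, and -0.28 in the named neuron clusters, against 0.26.

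Single clusters of named neurons called few chaperone genes. CGRP-a had 4 of the 48 higher (8.33%, against 12.5% of all genes), led by Dnajc15, and 5 lower (10.4%, against 7.26%). CGRP-e had 2 higher (4.17%, against 9.77%), led by Hspb1, and 3 lower (6.25%, against 5.65%), and CGRP-n had 4 higher (8.33%, against 9.61%), led by Hspa4l, and 2 lower (4.17%, against 4.32%). CGRP-z and Heat.sen called none lower, where 0.715% and 1.18% of all genes were lower, and had 2 (4.17%, against 11.3%) and 4 higher (8.33%, against 12.6%), led in both by Dnajc6. Cold.sen had 1 higher (2.08%, against 11%) and 1 lower (2.08%, against 5.44%). In these clusters no share of chaperone genes called higher exceeded that of all genes. LTMR, the touch neurons, had 4 higher (8.33%, against 12.5%), led by Hspb1, and 3 lower (6.25%, against 8.46%). Non-peptidergic cells had 5 higher (10.4%, against 9.86%) and 7 lower (14.6%, against 9.71%). SST had 5 higher (10.4%, against 12.5%), led by Hspb8, and 9 lower (18.8%, against 10.7%). Peptidergic.488p was the one named neuron cluster besides Non-peptidergic with a larger share higher than over all genes, with 6 genes (12.5%, against 7.05%) led by Hspa8, and it had 4 lower (8.33%, against 13.8%).

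Each Low.UMI cluster had a larger share of chaperone genes higher, and a smaller share lower, than the table as a whole. Low.UMI.LTMR had 12 higher (25%, against 10.9%) and 5 lower (10.4%, against 20.1%). Low.UMI.Nonpep had 10 higher (20.8%, against 10.9%) and 7 lower (14.6%, against 21%), and Low.UMI.Pep had 12 higher (25%, against 10.8%) and 7 lower (14.6%, against 20.7%). Among the Unknown clusters the share lower was above that of all genes in each. Endothelial-like cells had 7 higher (14.6%, against 18%) and 19 lower (39.6%, against 28.8%), and satellite-glia-like cells 8 higher (16.7%, against 13%) and 15 lower (31.2%, against 27.4%). Mural-like cells had 5 higher (10.4%, against 8.05%) and 18 lower (37.5%, against 28.4%), and Schwann-like cells 2 higher (4.17%, against 5.21%) and 15 lower (31.2%, against 26.4%). The fibroblast-like clusters were alike in these counts, with 4 higher (8.33%, against 9.67%) and 16 lower (33.3%, against 20.4%) in Unknown.5 and 3 higher (6.25%, against 7.39%) and 17 lower (35.4%, against 25.5%) in Unknown.6. Macrophage-like cells had Hspa5 alone higher (2.08%, against 9.91%) and 17 lower (35.4%, against 33%).

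Most of these differences were small. Of all pairs, 46 higher (4.79%, against 5.34% of all genes) and 85 lower (8.85%, against 7.62%) had an absolute log2 fold change of at least 0.5. At least 1 was reached by 8 higher pairs (0.833%, against 1.97%), all in Unknown clusters (2.38%, against 3.81% there), and by 26 lower pairs (2.71%, against 2.32%). In the Unknown clusters 64 lower pairs reached 0.5 (19%, against 13.9%) and 22 reached 1 (6.55%, against 4.42%). In the Low.UMI clusters 14 higher pairs reached 0.5 (9.72%, against 2.36%) and 0 reached 1 (against 0.433%), while 12 lower pairs reached 0.5 (8.33%, against 8.66%) and 2 reached 1 (1.39%, against 2.21%). In the named neuron clusters 9 higher pairs (1.88%, against 4.47%) and 9 lower pairs (1.88%, against 2.89%) reached 0.5, and 0 higher (against 1.15%) and 2 lower pairs (0.417%, against 0.881%) reached 1. Those 2 pairs were Hspa5 in SST and Hspb1 in Non-peptidergic cells.

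**Figure D1:**
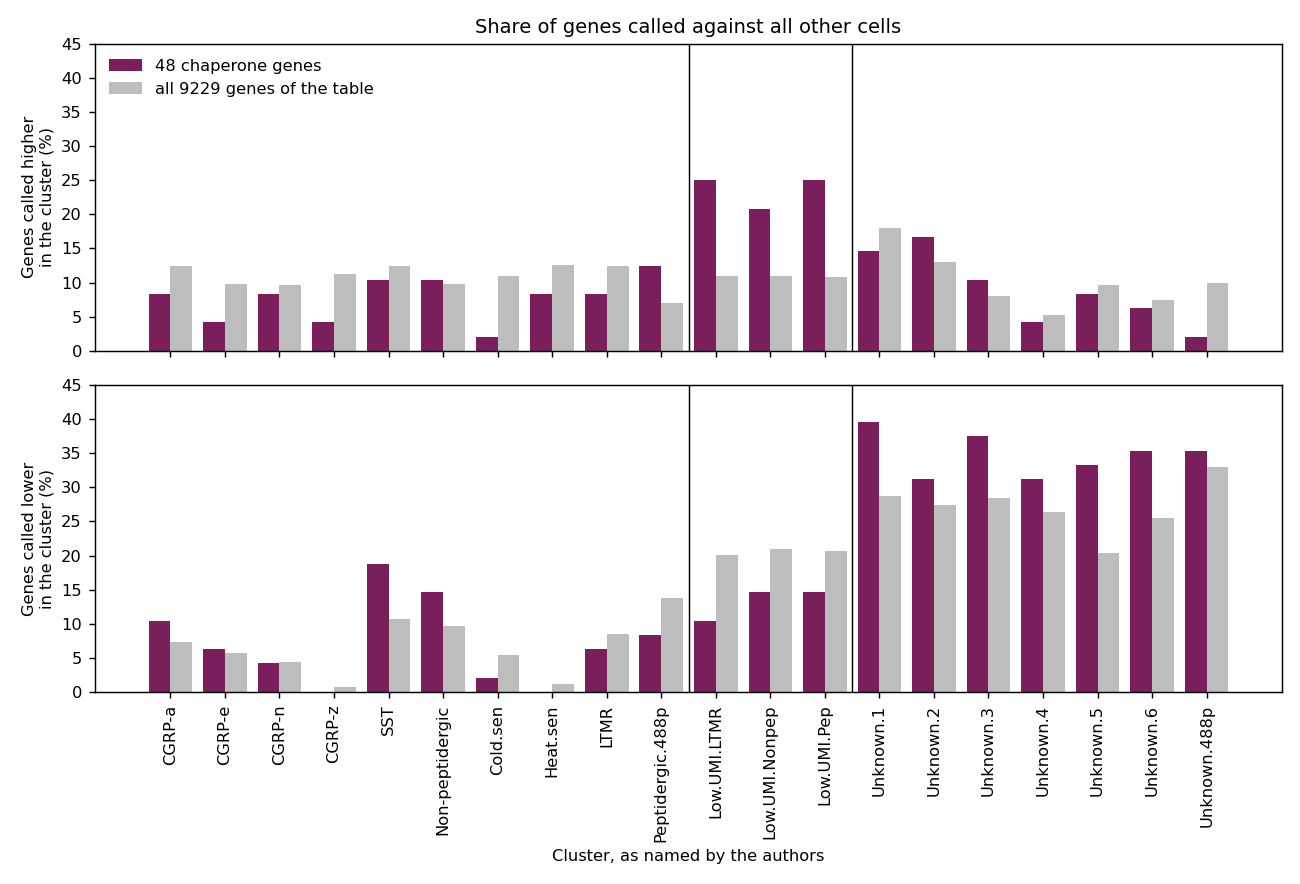
Share of the 48 chaperone genes (purple, left bar) and of all 9229 genes of the table (grey, right bar) called higher (upper panel) or lower (lower panel) in each cluster, in percent. In the 3 Low.UMI clusters 20.8 to 25% of the chaperone genes were called higher, against 10.8 to 10.9% of all genes, and in the 7 Unknown clusters 31.2 to 39.6% were called lower, against 20.4 to 33% of all genes.

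Mean level and detection did not always point the same way. In the Low.UMI clusters 33 of the 34 pairs called higher had fewer positive cells in percent than the other cells did, as had 95.3% of all genes called higher there. With the direction of detection required too, 1 higher pair was left there (0.694%, against 0.506%) and 67 in all clusters (6.98%, against 8.91%). In the named neuron clusters 29 of the 34 pairs called lower (85.3%, against 46.5% over all genes) were detected in a larger share of the cluster's cells, which leaves 5 with both measures lower (1.04%, against 3.6%). With the deposited p in place of the adjusted p, 54 pairs were lower there (11.2%, against 10.4%). In the Unknown clusters only 5 of the 117 lower pairs and 1 of the 30 higher pairs went against detection. The Low.UMI clusters are defined by shallow cells, and the part of depth in these calls was not tested. Where the fold change of a called pair stands alone below, the share of positive cells was smaller in each Low.UMI cluster, other than for Hsp90aa1 in Low.UMI.Pep. For lower pairs in named neurons it was larger, other than for the 4 of Peptidergic.488p and for Hspa1b in LTMR.

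**Figure D2:**
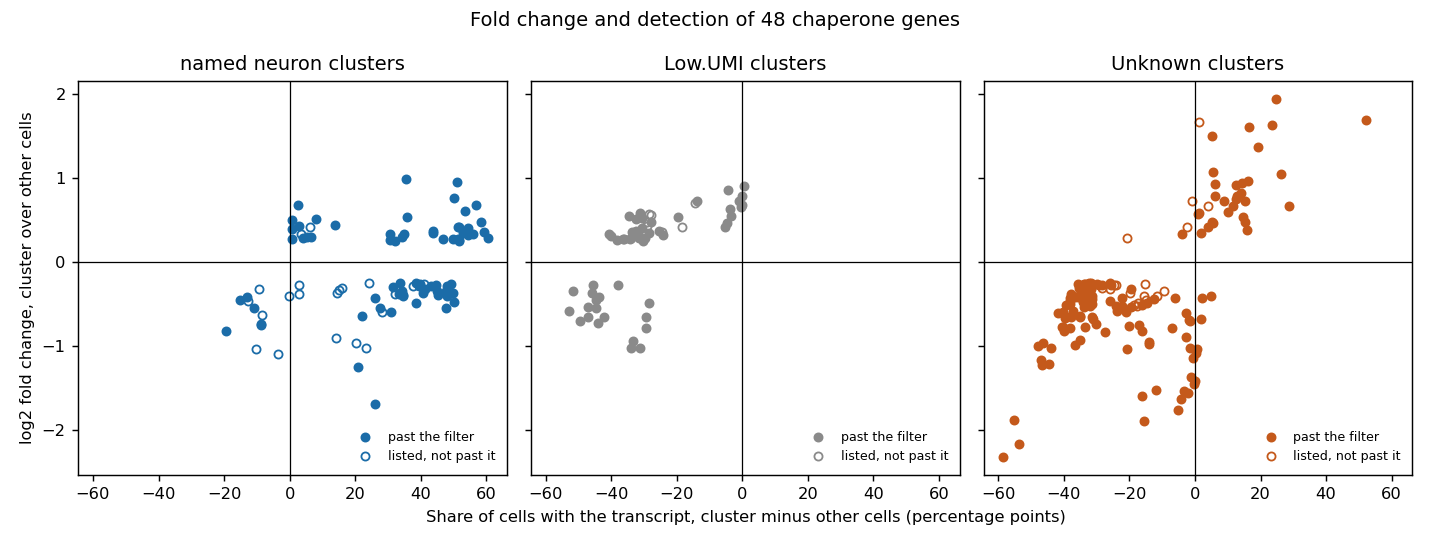
Deposited log2 fold change (vertical axis) against the difference in the share of cells with the transcript (horizontal axis, cluster minus other cells, percentage points) for the listed pairs of the 48 genes, by kind of cluster. Filled points passed the filter on the adjusted p, and open points did not. The Low.UMI pairs above 0 on the vertical axis lie with 1 called exception at or left of 0 on the horizontal axis, and the Unknown pairs lie mostly in the lower left and the upper right.

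To compare clusters with each other, the level in a cluster was also put relative to the mean of all cells, from the fold change and the share of all cells that the cluster holds. A level ratio of 1 is the mean of all cells. Any constant added to the means before the fold change stays in it, which draws ratios of rare transcripts towards 1. The share of all cells with a transcript ran from 4.3% for Hspb2 to 99.3% for Hsp90ab1, and 18 of the 48 genes were in more than 50% of all cells.

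**Figure D3:**
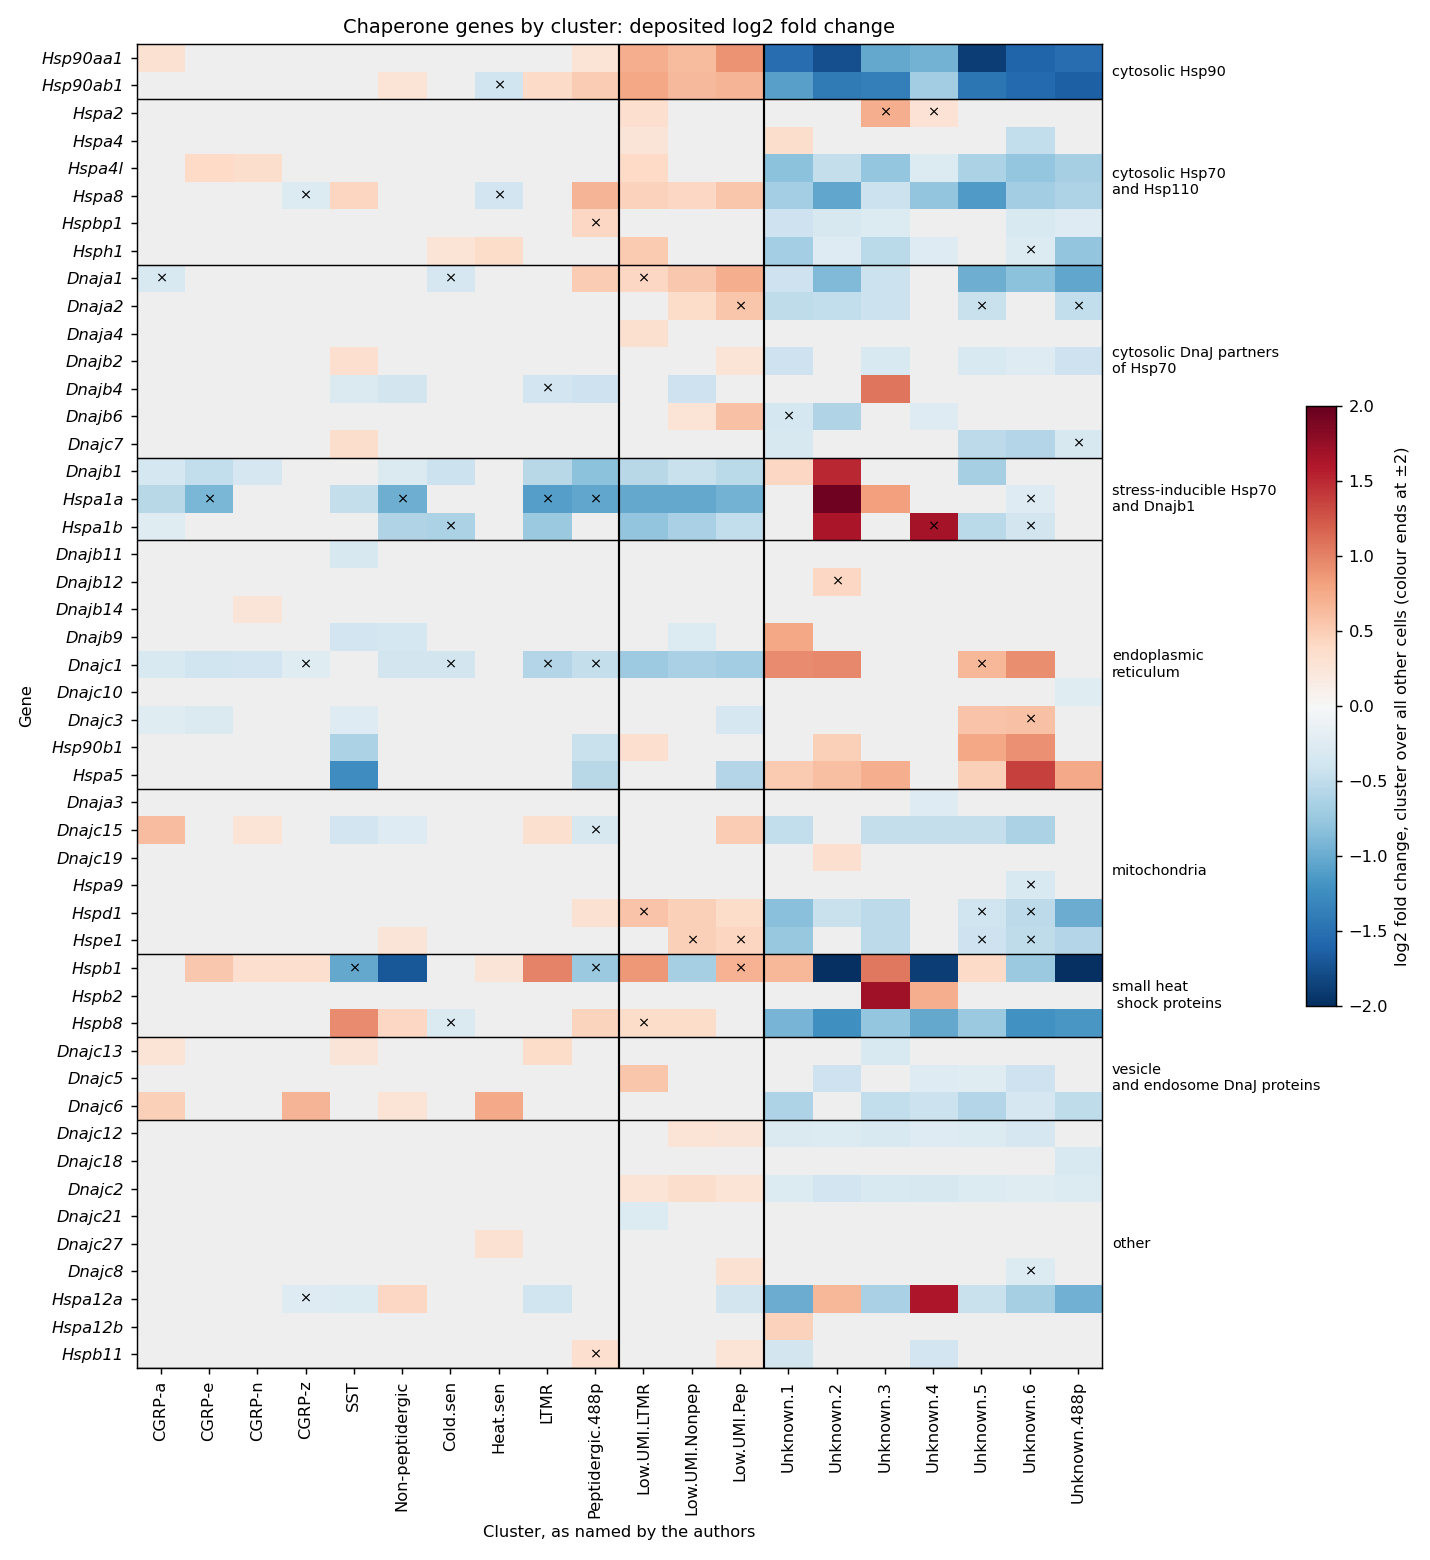
Deposited log2 fold change of the 48 genes (rows, by role) in the 20 clusters (columns, named neurons left, Low.UMI in the middle, Unknown right), cluster over all other cells. Red is higher, blue is lower, pale grey is not listed, and a cross marks a listed value that did not pass the filter. Cytosolic Hsp90 was lower in all 7 Unknown clusters, with log2 fold changes of -1.89 to -0.69, while Hspa5 was higher in 6 of them, at 0.48 to 1.37.

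The cytosolic Hsp90 genes were detected in most cells of every cluster that lists them, at lower levels in the Unknown clusters. Both were lower in all 7 Unknown clusters, so that 14 of 14 pairs were lower (against 27.1% of all genes), and both were higher in all 3 Low.UMI clusters (against 10.9%). Hsp90aa1, the more stress-responsive form, had log2 fold changes of -1.89 to -0.95 with a median of -1.53 over the Unknown clusters, from the authors' deposited table. It was still detected there in 78.0 to 92.4% of cells, against 94.0 to 94.4% of other cells in the authors' deposited table. Among named neurons the authors' deposited table called Hsp90aa1 higher in CGRP-a (0.30) and Peptidergic.488p (0.28). The lowest level ratio of Hsp90aa1 was 0.27, in the fibroblast-like cells of Unknown.5, and the highest was 1.67, in Low.UMI.Pep.

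Hsp90ab1, the constitutive form, was in 95.2 to 99.6% of cells in each Unknown cluster, against 99.3 to 99.4% of other cells, in the authors' deposited table. It was thus lower in level in cells that nearly all had it. Its level ratio was 0.33 in macrophage-like cells and 0.62 in Schwann-like cells, the lowest and the highest of the Unknown clusters. The authors' deposited table called Hsp90ab1 higher among named neurons in Peptidergic.488p (0.50), LTMR (0.39) and Non-peptidergic cells (0.27). Its value of -0.40 in Heat.sen did not pass the filter in the authors' deposited table.

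Hspa8, the constitutive Hsp70 that also strips clathrin from vesicles, went the same way in the Unknown and Low.UMI clusters. It was lower in the 7 Unknown clusters, with log2 fold changes of -1.14 to -0.43, and higher in the 3 Low.UMI clusters, at 0.42 to 0.55, in the authors' deposited table. Peptidergic.488p had its largest fold change (0.68) and SST the next among neurons (0.43) in the authors' deposited table. The level ratio of Hspa8 was 1.58 in Peptidergic.488p, 1.29 to 1.37 in the Low.UMI clusters and 0.46 to 0.75 in the Unknown clusters.

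The Hsp110 proteins and other exchange factors of Hsp70 were mostly lower in the Unknown clusters. Hspa4l was lower in all 7 Unknown clusters, where 7.8 to 23.9% of cells had it, against 48.0 to 51.0% of other cells in the authors' deposited table. It was higher in CGRP-e (0.40, in 99.2% of cells) and CGRP-n (0.35, in 98.3%) and in Low.UMI.LTMR (0.40, but in 17.8% of cells against 48.3%) in the authors' deposited table. Hsph1 was higher in Heat.sen (0.37), Low.UMI.LTMR (0.52) and Cold.sen (0.27), where no other chaperone gene was called higher, in the authors' deposited table. It was lower in 5 Unknown clusters, from -0.26 to -0.79 in macrophage-like cells, in the authors' deposited table. Hspa4 was higher in endothelial-like cells (0.35) and Low.UMI.LTMR (0.26) and lower in Unknown.6 (-0.50) in the authors' deposited table. Hspbp1 was lower in 5 Unknown clusters (-0.42 to -0.26) in the authors' deposited table. Over the 6 cytosolic Hsp70 and exchange factor genes other than the inducible ones, 25 of 42 pairs were lower (59.5%, against 27.1% of all genes) and 1 was higher (2.38%, against 10.2%) in the Unknown clusters. Hspa2, a Hsp70 best known from the testis, passed the filter in Low.UMI.LTMR alone (0.34 in the authors' deposited table).

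Among the DnaJ partners of cytosolic Hsp70, 19 of 49 pairs in the Unknown clusters were lower (38.8%, against 27.1% of all genes) and 1 was higher (2.04%, against 10.2%). The partners differed from each other in how many clusters called them. Dnaja1 was lower in 6 of them, with log2 fold changes of -1.04 to -0.41, and higher in Peptidergic.488p (0.51), Low.UMI.Nonpep (0.54, but in 67.5% of cells against 87.1%) and the Low.UMI.Pep cluster (0.72, in 72.9% against 86.8%) in the authors' deposited table. The aggregation suppressor Dnajb6 was higher in Low.UMI.Pep (0.58, but in 35.8% of cells against 67.0%) and Low.UMI.Nonpep (0.27, in 30.7% against 66.8%) and lower in satellite-glia-like (-0.60) and Schwann-like cells (-0.26) in the authors' deposited table. Dnajb2 and Dnajc7 were each higher in 1 neuron cluster, SST (0.33 and 0.35), and lower in 5 and 3 of the Unknown clusters, by the authors' deposited table. Dnaja2 was higher in Low.UMI.Nonpep (0.36) and lower in 3 Unknown clusters (-0.51 to -0.43), and Dnaja4 was listed for Low.UMI.LTMR alone (0.32), in the authors' deposited table. Dnajb4, the one partner called higher in an Unknown cluster, was higher in mural-like cells (1.07, in 48.4% of cells against 42.8%) and lower in SST, Non-peptidergic, Peptidergic.488p and Low.UMI.Nonpep cells (-0.42 to -0.29) in the authors' deposited table.

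The stress-inducible genes Hspa1a, Hspa1b and Dnajb1 were distributed differently. In the Unknown clusters 5 of their 21 pairs were higher (23.8%, against 10.2% of all genes) and 2 lower (9.52%, against 27.1%). Hspa1a and Hspa1b code for the Hsp70 forms that Hsf1 switches on, and Dnajb1 is their main inducible partner. None of the 3 was called higher in a named neuron or Low.UMI cluster, and all 3 were higher in the satellite-glia-like cells of Unknown.2. To show what the inducible pair shares, the 88 bases around the heat shock element before each start site are printed from the RefSeq promoters of GRCm38.p6, with the element GAANNTTC in capitals. They lie at chr17:34972213-34972300 for Hspa1a and chr17:34959295-34959382 for Hspa1b, both on the minus strand, 144 to 57 bases before the start site.
Hspa1a: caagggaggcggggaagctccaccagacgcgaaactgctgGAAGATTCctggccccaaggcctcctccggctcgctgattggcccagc
Hspa1b: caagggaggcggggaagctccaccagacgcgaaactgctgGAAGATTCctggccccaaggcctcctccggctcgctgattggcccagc
The pair is identical in these 88 bases, in 98.8% of the 250 bases before the start site and in 99.4% of the coding sequence, but in 50.1% of an alignment of the last 300 bases of the transcripts. The sources used here do not give how reads that match both were counted, so the division of counts between Hspa1a and Hspa1b is uncertain.

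In satellite-glia-like cells Hspa1a stood at a log2 fold change of 1.94 (in 55.1% of cells, against 30.3% of other cells), Hspa1b at 1.63 (49.9%, against 26.4%) and Dnajb1 at 1.5 (55.8%, against 50.7%) in the authors' deposited table. These correspond to level ratios of 3.07, 2.61 and 2.43. Hspa1a was also higher in mural-like cells (0.82) and Dnajb1 in endothelial-like cells (0.42) in the authors' deposited table. Hspa1b in Schwann-like cells stood at 1.67 in the authors' deposited table without passing the filter, and 29.7% of those cells had it, against 28.5% of other cells. In the fibroblast-like cells of Unknown.5, Dnajb1 (-0.66) and Hspa1b (-0.54) were lower in the authors' deposited table.

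All 9 pairs of these 3 genes in the Low.UMI clusters were lower, where 20.6% of all genes were. In these shallow clusters each of the 5702 pairs of all genes called lower also had the smaller share of positive cells. Hspa1a was in 2.2 to 3.8% of Low.UMI cells, against 33.4 to 37.2% of other cells, and Hspa1b in 0.0 to 3.9%, against 29.4 to 32.5%, in the authors' deposited table. Dnajb1 was in 7.8 to 11.8% of Low.UMI cells, against 52.5 to 57.8% of other cells in the authors' deposited table.

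In named neurons 12 of 30 pairs were lower in mean level (40%, against 6.72% of all genes), mostly with more cells positive. SST cells had Hspa1a in 79.6% of cells, against 29.6% of other cells, at a log2 fold change of -0.48 in the authors' deposited table. LTMR cells had Dnajb1 in 97.1% of cells, against 49.3%, at -0.55 in the authors' deposited table. In such pairs the 2 measures point in opposite directions, and the filter on the adjusted p does not say which of them it rests on. In Peptidergic.488p both measures were low for Dnajb1, at -0.82 and 32.5% of cells against 51.8% in the authors' deposited table.

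Immediate early genes, which are known to be induced when tissue is dissociated, were high or low in several of the same clusters. Of the 14 genes of that list, 11 were higher (78.6%, against 13% of all genes) and 0 lower in satellite-glia-like cells, with Egr1 at 2.15 and Fos at 2.07 in the authors' deposited table. Endothelial-like cells had 14 higher (against 18% of all genes), mural-like cells 12 (against 8.05%) and Unknown.6 cells 11 (against 7.39%). Schwann-like and macrophage-like cells had 5 higher each (against 5.21% and 9.91%), and Unknown.5 cells had 1 (against 9.67%). In Unknown.6, Hspa1a (-0.26) and Hspa1b (-0.37) did not pass the filter in the authors' deposited table. In the Low.UMI clusters 42 of 42 pairs of the list were lower (against 20.6% of all genes), and in the 7 Unknown clusters together 59 of 98 were higher (60.2%, against 10.2%) and 4 lower (4.08%, against 27.1%). In endothelial-like cells Fos (1.60) and Dnajb1 (0.42) were both higher, and Hspa1a and Hspa1b are not listed, in the authors' deposited table. The part of the digestion at 37 °C in the levels of Hspa1a, Hspa1b and Dnajb1 was not tested.

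Other chaperone promoters hold the element too. Promoters of 250 bases before to 50 bases after the start site were found for 39 of the 48 genes, 51 promoters in all. The letters GAANNTTC or TTCNNGAA, which read the same on both strands as a pair of units, were in 15 of the 51 (29.4%), against 15.1% of all 32851 mouse promoters. A stretch of 3 units, that is GAANNTTC followed by NNGAA or TTCNNGAA followed by NNTTC, which contains the shorter letters, was in 6 of the 51 (11.8%), against 0.603%. These promoters belong to 4 genes, Hspd1, Hspe1, Dnajb6 and Hsph1. Hspd1 and Hspe1 share the same match, and overlapping promoters of Dnajb6 and of Hsph1 each hold the same match. Such sites are thus counted more than once in both shares. The match of 3 units in Hsph1 lies after the start site. For Dnaja1 and Dnajb6, which unlike Hspa1a were lower in satellite-glia-like cells, the matches are printed in capitals with 5 bases on either side, at chr4:40722339-40722356 and chr5:29735847-29735869, both on the plus strand.
Dnaja1: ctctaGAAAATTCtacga
Dnajb6: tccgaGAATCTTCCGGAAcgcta
The promoters of Dnajb1 in the RefSeq table lack these exact letters, which says nothing of whether Hsf1 binds there.

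**Figure D4:**
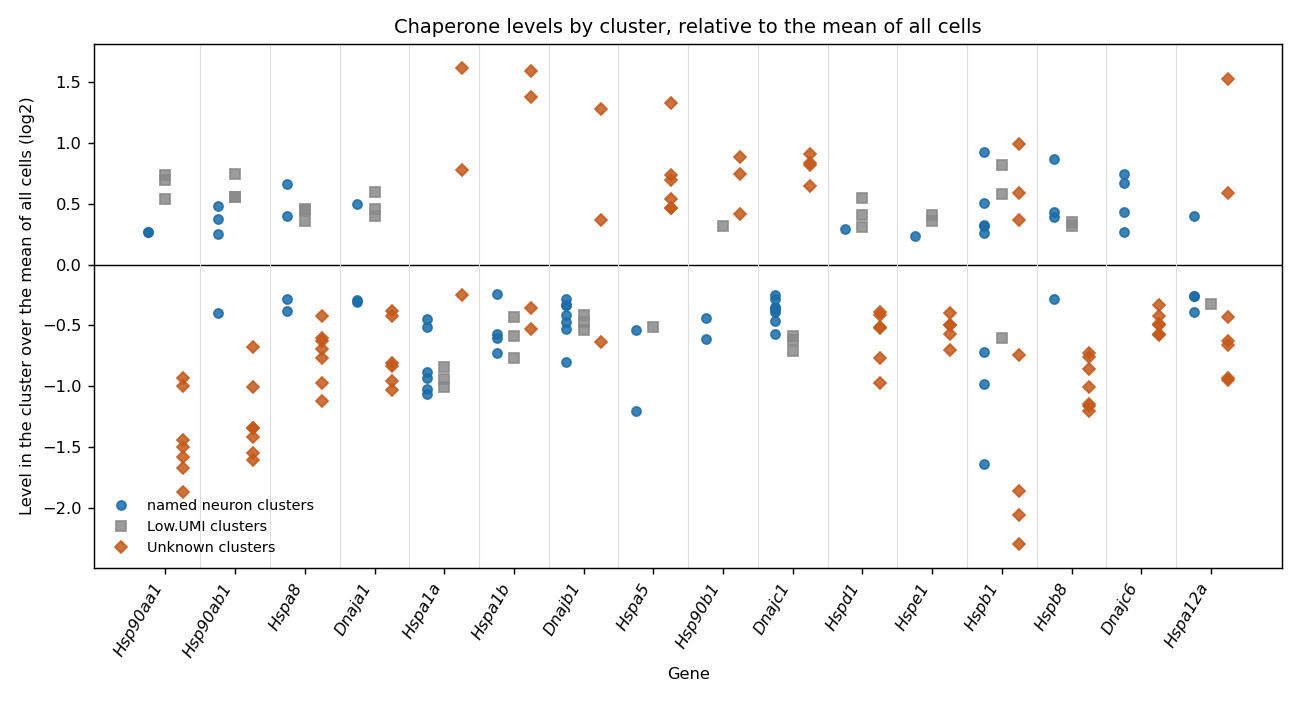
Level of 16 chaperone genes in each cluster in which they are listed, relative to the mean of all cells (log2, vertical axis), for named neuron (blue circles), Low.UMI (grey squares) and Unknown clusters (orange diamonds). For Hsp90aa1, Hsp90ab1 and Hspa8 the Unknown clusters lie below 0 and the Low.UMI clusters above it, while for Hspa1a, Hspa1b, Dnajb1, Hspa5 and Dnajc1 the highest values are those of Unknown clusters. Listed values that did not pass the filter are drawn too, without a mark. The highest value of Hspa1b, in Schwann-like cells, is one of them.

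The chaperones of the endoplasmic reticulum were mostly higher where called in the Unknown clusters, and mostly lower in mean level where called in named neurons. Of 63 pairs in the Unknown clusters 14 were higher (22.2%, against 10.2% of all genes) and 1 was lower (1.59%, against 27.1%). Of 90 pairs in named neurons 1 was higher (1.11%, against 10.9%) and 14 were lower (15.6%, against 6.72%). Hspa5 codes for BiP, the Hsp70 of this compartment, and Hsp90b1 for its Hsp90. The ER stress elements of 3 of these genes are printed in capitals, as CCAAT and CCACG with 9 bases between them or the reverse complement. The stretches that hold them, with the bases around them, are chr2:34772020-34772048 on the plus strand for Hspa5, chr10:86705528-86705661 on the minus strand for Hsp90b1, which has 2 elements, and chr14:118937787-118937885 on the plus strand for Dnajc3.
Hspa5: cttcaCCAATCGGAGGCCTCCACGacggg
Hsp90b1: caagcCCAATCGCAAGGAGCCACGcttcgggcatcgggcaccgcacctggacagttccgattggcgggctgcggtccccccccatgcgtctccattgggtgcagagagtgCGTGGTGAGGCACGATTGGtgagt
Dnajc3: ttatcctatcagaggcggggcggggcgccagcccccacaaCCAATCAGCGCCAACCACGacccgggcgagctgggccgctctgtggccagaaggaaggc
Of the 51 chaperone promoters these 3 have the element (5.88%), against 0.119% of all mouse promoters.

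Hspa5 was higher in 6 of the 7 Unknown clusters, all but the Schwann-like cells, for which it is not listed. Its fold change was largest in the fibroblast-like cells of Unknown.6 (1.37, in 94.3% of cells against 75.1%) in the authors' deposited table. Macrophage-like (0.75), mural-like (0.73), satellite-glia-like (0.60), endothelial-like (0.53) and the other fibroblast-like cells (0.48) followed in the authors' deposited table. The level ratio of Hspa5 was 2.51 in Unknown.6 and 0.43 in SST, the ends of its range.

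SST cells, the itch neurons with somatostatin, had 9 chaperone genes lower (18.8%, against 10.7% of all genes), and 5 of these belong to the endoplasmic reticulum. They are Hspa5 (-1.25), Hsp90b1 (-0.64), Dnajb9 (-0.39), Dnajb11 (-0.32) and Dnajc3 (-0.26) in the authors' deposited table. Each was nevertheless detected in a larger share of SST cells than of other cells, as for Hspa5 with 95.2% against 74.2% in the authors' deposited table. Of the 16 other folding and stress genes of this compartment that the table holds, 5 were lower (31.2%, against 10.7% of all genes) and 0 higher in SST, among them Pdia3 (-1.02) and Calr (-0.87) in the authors' deposited table. SST was not alone in this. CGRP-a also had 5 of the 16 lower (31.2%, against 7.26%) and 0 higher. Non-peptidergic cells and LTMR had 4 lower each (25%, against 9.71% and 8.46%), with 1 higher in LTMR. CGRP-z had 2 higher (12.5%, against 11.3%) and 0 lower, and Heat.sen had 0 of either. Hspa5 (-0.55) and Hsp90b1 (-0.45) were also lower in Peptidergic.488p, with detection lower too (64.9% against 75.8% for Hspa5), in the authors' deposited table.

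Hsp90b1 was higher in both fibroblast-like clusters (0.91 in Unknown.6 and 0.78 in Unknown.5), in satellite-glia-like cells (0.47) and in Low.UMI.LTMR (0.33, though in 34.8% of cells against 75.5%) in the authors' deposited table. Dnajc1, a membrane DnaJ protein that binds BiP and ribosomes, was listed for 15 clusters. It was higher in satellite-glia-like (0.96), endothelial-like (0.94) and Unknown.6 cells (0.93) and lower in 4 neuron and all 3 Low.UMI clusters (-0.73 to -0.30) in the authors' deposited table. Only 1.7 to 2.9% of Low.UMI cells had Dnajc1, against 45.7 to 51.4% of other cells, in the authors' deposited table. Dnajc3, which binds unfolded protein beside BiP, was higher in Unknown.5 (0.57), and Dnajb9, which directs BiP to clients, was higher in endothelial-like cells (0.78), in the authors' deposited table. Dnajc10, a disulfide reductase with a J domain, was lower in macrophage-like cells (-0.25) in the authors' deposited table. Dnajb14, which faces the cytosol, was higher in CGRP-n (0.25), and its relative Dnajb12 did not pass the filter in the 1 cluster that lists it (0.41 in Unknown.2), in the authors' deposited table.

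Of the pairs of mitochondrial chaperones in the Unknown clusters, 13 of 42 were lower (31%, near the 27.1% of all genes) and 1 was higher (2.38%, against 10.2%). Hspd1 and Hspe1 code for the chaperonin Hsp60 and its lid Hsp10, lie head to head and share their promoter. The same stretch, chr1:55088054-55088081, carries their heat shock element of overlapping units, read here on the minus strand for Hspd1 and the plus strand for Hspe1.
Hspd1: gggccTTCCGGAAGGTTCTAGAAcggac
Hspe1: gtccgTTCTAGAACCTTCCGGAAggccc
Hspd1 was lower in endothelial-like (-0.83), satellite-glia-like (-0.44), mural-like (-0.53) and macrophage-like cells (-0.99) in the authors' deposited table. Hspe1 was lower in 3 of these 4 (-0.76, -0.52 and -0.58 for endothelial-like, mural-like and macrophage-like cells) and is not listed for the satellite-glia-like cells in the authors' deposited table. In both fibroblast-like clusters the pair was listed at -0.52 to -0.40 without passing the filter in the authors' deposited table. Among neurons Hspd1 was higher in Peptidergic.488p (0.30) and Hspe1 in Non-peptidergic cells (0.25) in the authors' deposited table. In none of the clusters was one of the pair called higher and the other lower.

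Dnajc15, a DnaJ protein of the inner mitochondrial membrane, differed in mean level between neuron clusters. It was higher in CGRP-a (0.61, in 96.1% of cells against 42.7%), LTMR (0.32) and CGRP-n (0.27) in the authors' deposited table. It was lower in SST (-0.39, but in 89.4% of cells against 44.0%) and Non-peptidergic cells (-0.26, in 93.2% against 44.1%) in the authors' deposited table. In 5 Unknown clusters it was lower, with 7.8 to 18.0% of cells positive, against 47.4 to 49.5% of other cells, in the authors' deposited table. Of the others, Dnajc19 was higher in satellite-glia-like cells (0.33), Dnaja3 was lower in Schwann-like cells (-0.26), and Hspa9, the mitochondrial Hsp70, was listed once without passing the filter (-0.31 in Unknown.6), in the authors' deposited table.

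The small heat shock proteins varied widely between cell types. Hspb1 (Hsp27), which binds actin and intermediate filaments and supports motor and sensory axons, was listed for 18 of the 20 clusters. It was called higher in 9 and lower in 6. Its promoter holds a pair of heat shock elements, shown in capitals within chr5:135887762-135887869 on the plus strand.
Hspb1: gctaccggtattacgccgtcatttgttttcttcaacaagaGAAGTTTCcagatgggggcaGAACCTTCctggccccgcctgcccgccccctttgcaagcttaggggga

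Among neurons Hspb1 was higher in LTMR (0.99), CGRP-e (0.54), CGRP-n (0.33), CGRP-z (0.33) and Heat.sen (0.26) and lower in Non-peptidergic cells (-1.69, but in 90.3% of cells against 64.3%) in the authors' deposited table. The values in SST (-1.02) and Peptidergic.488p (-0.74) did not pass the filter in the authors' deposited table. Of the Low.UMI clusters, Low.UMI.LTMR was higher (0.86, but in 61.3% of cells against 65.8%) and Low.UMI.Nonpep lower (-0.66, in 28.3% against 70.5%) in the authors' deposited table. Low.UMI.Pep stood at 0.70 (in 53.3% against 67.7%) without passing the filter in the authors' deposited table. Non-neuronal clusters were divided as well. Most vessel cells had it, with 91.7% of endothelial-like cells (0.67) and 91.0% of mural-like cells (1.05), against 63.0% and 64.7% of other cells, in the authors' deposited table. Few glia and macrophages had it, with 16.9% of satellite-glia-like (-2.17), 11.9% of Schwann-like (-1.88) and 8.2% of macrophage-like cells (-2.32) in the authors' deposited table. The fibroblast-like clusters differed in sign, at 0.38 in Unknown.5 and -0.75 in Unknown.6 in the authors' deposited table. By level ratio the ends of the range were 1.99 in mural-like cells and 0.20 in macrophage-like cells.

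Hspb8, which works with Bag3 in selective autophagy, was called higher in neuron and Low.UMI clusters only. It was higher in SST (0.95, in 97.6% of cells against 46.5%), Peptidergic.488p (0.44), Non-peptidergic (0.42) and Low.UMI.Nonpep cells (0.37) in the authors' deposited table. All 7 Unknown clusters had it lower, at -1.23 to -0.74 and in 3.4 to 20.0% of cells, against 50.2 to 53.6% of other cells, in the authors' deposited table. Its partner Bag3 was higher in SST too (0.34), and also in endothelial-like cells (0.45), where Hspb8 was lower (-0.93), in the authors' deposited table. In mean level Hspb1 and Hspb8 thus pointed opposite ways in Non-peptidergic, endothelial-like, mural-like, Low.UMI.Nonpep and Unknown.5 cells. By detection, both were in a larger share of Non-peptidergic cells, and both in a smaller share of Low.UMI.Nonpep cells, than of other cells.

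Hspb2, a muscle small heat shock protein, had the smallest share of positive cells of the 48 genes and was listed for 2 clusters. It was in 54.7% of mural-like cells, against 2.4% of other cells (1.69), and in 19.2% of Schwann-like cells, against 3.9% (0.73), in the authors' deposited table.

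DnaJ proteins of vesicles and endosomes were called higher in neuron and Low.UMI clusters alone. Over 3 genes, 7 of 30 pairs were higher (23.3%, against 10.9% of all genes) and 0 lower (against 6.72%) in named neurons, and 11 of 21 were lower (52.4%, against 27.1%) and 0 higher (against 10.2%) in the Unknown clusters. Dnajc6 codes for auxilin, which recruits Hspa8 to uncoat clathrin vesicles at the synapse. It was higher in Heat.sen (0.76, in 90.8% of cells against 40.6%), CGRP-z (0.68), CGRP-a (0.47) and Non-peptidergic cells (0.28) in the authors' deposited table. In 6 Unknown clusters 2.1 to 7.1% of cells had Dnajc6, against 41.9 to 45.1% of other cells, in the authors' deposited table. Dnajc13, an endosomal DnaJ protein, was higher in LTMR (0.36), CGRP-a (0.27) and SST (0.26) in the authors' deposited table. Dnajc5, the cysteine string protein of synaptic vesicles, was called higher in Low.UMI.LTMR (0.55, but in 14.3% of cells against 49.0%) and in no named neuron cluster, and lower in 4 Unknown clusters (-0.42 to -0.25), in the authors' deposited table.

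Of the remaining genes, Hspa12a, a distant relative of Hsp70, was higher in both glia-like clusters. It was higher in Schwann-like (1.61, in 66.2% of cells against 49.8%), satellite-glia-like (0.66) and Non-peptidergic cells (0.42) in the authors' deposited table. The other 5 Unknown clusters had it lower (-1.0 to -0.44), as had LTMR, SST and Low.UMI.Pep, in the authors' deposited table. Its relative Hspa12b, known from endothelium, was listed for endothelial-like cells alone (0.46, in 24.3% of cells against 18.8%) in the authors' deposited table. Dnajc2, a co-chaperone at the ribosome, was lower in all 7 Unknown clusters (-0.39 to -0.25) and higher in all 3 Low.UMI clusters (0.27 to 0.35) in the authors' deposited table. Dnajc12 was lower in 6 Unknown clusters (-0.34 to -0.26) and higher in Low.UMI.Nonpep (0.28) and the Low.UMI.Pep cluster (0.25) in the authors' deposited table. Hspb11, which by name is a small heat shock protein but is a subunit of intraflagellar transport, was higher in Low.UMI.Pep (0.28) and lower in endothelial-like (-0.37) and Schwann-like cells (-0.38) in the authors' deposited table. Dnajc27, a GTPase with a J domain, was listed for Heat.sen alone (0.30), the splicing-related Dnajc8 was higher in Low.UMI.Pep (0.31), Dnajc21 was lower in Low.UMI.LTMR (-0.27), and Dnajc18 was lower in macrophage-like cells (-0.31), in the authors' deposited table.

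Across all 48 genes, 32 were called higher in at least 1 cluster and lower in another, 8 only higher and 6 only lower. The 2 genes never called were Dnajb12 and Hspa9. The 6 genes lower in all 7 Unknown clusters were Hsp90aa1, Hsp90ab1, Hspa8, Hspa4l, Hspb8 and Dnajc2. For 12 genes a single cluster is listed, and 16 genes are listed for 10 or more. No share of all genes stands beside the counts of this paragraph, so they do not set chaperones apart from other genes.

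Partner proteins outside the 48 genes were described with lists of related genes. Of 24 co-chaperones of Hsp70 and Hsp90, 88 of 168 pairs were lower (52.4%, against 27.1% of all genes) and 3 higher (1.79%, against 10.2%) in the Unknown clusters. In the Low.UMI clusters 26 of 72 were higher (36.1%, against 10.9%) and 2 lower (2.78%, against 20.6%). Stip1, which links Hsp70 to Hsp90, was lower in all 7 Unknown clusters (-0.90 to -0.48) in the authors' deposited table. The 8 subunits of the cytosolic chaperonin TRiC had 45 of 56 pairs lower (80.4%, against 27.1%) and 0 higher in the Unknown clusters and 12 of 24 higher (50%, against 10.9%) and 0 lower in the Low.UMI clusters. The 16 listed genes of folding and stress in the endoplasmic reticulum had 25 of 112 pairs higher (22.3%, against 10.2%) and 11 lower (9.82%, against 27.1%) in the Unknown clusters, and 3 of 160 higher (1.88%, against 10.9%) and 30 lower (18.8%, against 6.72%) in named neurons. Of 9 mitochondrial partners 4 are in the table, with 11 of 28 pairs lower (39.3%, against 27.1%) and 0 higher in the Unknown clusters. The heat shock factor genes Hsf1, Hsf2 and Hsf4 are not listed.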

How the data were processed

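Single-cell 3′ RNA sequencing of NMP-positive and NMP-negative dorsal root ganglion cells was summarised by the authors in a table of markers for 20 clusters. Per the file headers, each row holds a p-value with its adjusted form, a log2 fold change (average, cluster over other cells) and, for either set of cells, the fraction in which the gene was detected. The submitters' processing notes name Seurat. The sources used here do not give the aligner, genome build, cell filters, normalization or handling of doublets. No deposited p-value is above 0.01, log2 fold changes start at 0.25 in size, and the larger fraction of a pair is never under 10%. Deposited p-values were adjusted by a factor of 32285.

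Fractions were printed as percentages. Cluster shares of all cells were solved by least squares over 6748 genes whose fractions differed by at least 5 percentage points, and summed to 100.01%. Level ratios followed from fold change and share. Weighted by the shares, they summed to 1.0000 to 1.0001 in the 34 genes listed for all clusters. The solution for the shares was tested on simulated data. No depth or number of cells is given, and no test was run.

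Named genes were the called members of largest and smallest fold change per cluster, members listed for at least 10 clusters and a set of well-known chaperones. Values of the remaining members, and of Bag3, Stip1, Egr1, Fos, Pdia3, Calr, Cryab, Serpinh1 and Tomm70a from the lists, were added after they had been seen. The genes, lists and roles were chosen with earlier results of these data known. Promoters came from RefSeq (GRCm38.p6), transcripts from GENCODE. Alternatives were other call rules, other gene minimums for the cluster shares and a longer motif. Python 3.11.15, numpy 2.4.6, pandas 2.3.3, Biopython 1.88 and matplotlib 3.10.9 were used.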

Additional observations from a re-analysis of the deposited data

How the results depend on the processing

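The counts of chaperone pairs depended mainly on the minimum fold change and on whether detection had to differ in the same direction. With an absolute log2 fold change of at least 0.5 added, the pairs higher were 9 in named neuron clusters, 14 in Low.UMI clusters and 46 in all clusters, and the pairs lower were 9, 12, 64 (Unknown clusters) and 85 (all). At 1 or more, the pairs higher were 0 in named neuron, 0 in Low.UMI, 8 in Unknown and 8 in all clusters, and the pairs lower 2, 2, 22 and 26. When the share of cells also had to differ in the direction of the fold change, the pairs higher were 1 in Low.UMI and 67 in all clusters, and the pairs lower in named neuron clusters 5. With the deposited p in place of the adjusted p, the pairs lower in named neuron clusters were 54. Without the Low.UMI clusters 67 pairs were higher in all, and without the Unknown clusters 53 were lower, with no share of all genes given beside them. Each of these rules keeps fewer or more pairs by its construction. Requiring detection in at least 25% of either set of cells left every count within 1.5 times. The level relative to all cells keeps the direction of the fold change by its formula, so that all 319 listed values kept theirs is no check. The largest difference between the 2 was 0.33 on the log2 scale. The share of promoters with a heat shock element was 11.8% for 3 units, with a site that lies in several promoters counted in each. Cluster shares moved by at most 0.0017 percentage points with other gene minimums. No paired analysis was possible because the table holds no samples or replicate numbers, and leaving out a replicate was not possible for the same reason.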

Other observations

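Some chaperone genes have symbols outside the rule and also differed between clusters. Cryab, the small heat shock protein αB-crystallin, was higher in Schwann-like (log2 fold change 3.98, in 95.0% of cells against 18.4% of other cells), satellite-glia-like (2.08, 93.9% against 13.3%), mural-like (0.92) and Unknown.5 cells (0.35) in the authors' deposited table. In endothelial-like cells Cryab was lower (-1.54, 3.6% against 22.3%) in the authors' deposited table, whereas Hspb1 was higher there (0.67). Of the 4 clusters where Cryab was higher, Hspb1 was lower in Schwann-like and satellite-glia-like cells and higher in mural-like and Unknown.5 cells. Serpinh1, the collagen chaperone Hsp47 of the endoplasmic reticulum, was higher in Unknown.6 (2.86, 96.5% against 27.4%) and Unknown.5 (2.60, 92.1% against 27.0%) in the authors' deposited table. Both fibroblast-like clusters were also higher for Hsp90b1. Serpinh1 was higher by 1.03 to 1.09 in endothelial-like, satellite-glia-like and mural-like cells in the authors' deposited table. Tomm70a, the mitochondrial import receptor that docks Hsp70 and Hsp90, was higher in Cold.sen (1.52, 98.0% against 46.7%) and Heat.sen (0.71) in the authors' deposited table, while in Cold.sen no more than 1 of the 48 chaperone genes was called higher (2.08%, against 11% of all genes).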
